A study of Mus musculus with 11 samples.

Results

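The Fc receptor and Fc receptor-like genes were followed through normal, pre-leukemic and leukemic mouse B-lineage cells. The set was chosen by gene symbol and holds 8 of the 24319 genes measured: Fcrla, Fcrlb, Fcrl1, Fcrl5, Fcrl6, Fcgr2b, Fcgr3 and Fcer1g. It was drawn up knowing that Fcrla is lower in leukemia and that Fcrl6 is high in the leukemia of 1 mouse, so the values of the set in the leukemias are given as a description, without a test. Gene expression was measured by RNA sequencing of total RNA in 11 libraries from C57BL/6J mice. The leukemic cells were lymph node cells of leukemic animals with the genotype Ebf1+/- Pax5+/- and the diagnosis B cell acute lymphoblastic leukemia (B-ALL). There were 3 such mice, known as 686, 713 and 760, with 2 libraries per mouse. The dHet proB cells were Ebf1+/- Pax5+/- Rag2-/- and had been grown from c-Kit-positive fetal liver cells with SCF, IL-7 and Flt3 ligand over a layer of OP9 stroma (3 libraries). The wt proB cells were Ebf1+/+ Pax5+/+ Rag2+/+ cells of the bone marrow fraction BC, taken by sorting (2 libraries). Both the leukemic and the dHet proB cells thus carried 1 intact copy of Ebf1 and of Pax5, while loss of Rag2, which blocks antigen receptor rearrangement, was confined by the labels to the dHet proB cells. Genotype at Rag2, tissue and culture changed together with the group and cannot be told apart. Neither the ages of the mice nor the markers of any sort are given in the sources used here.

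Fc receptors bind the constant part of antibodies. Activating receptors such as the product of Fcgr3 signal through an immunoreceptor tyrosine-based activation motif (ITAM), which they borrow from the FcR gamma chain encoded by Fcer1g, and kinases of the Src and Syk families read that motif. The product of Fcgr2b is the inhibitory IgG receptor of B cells: it carries an inhibitory motif (ITIM) and recruits the lipid phosphatase encoded by Inpp5d. Fc receptor-like proteins are relatives found mostly in lymphocytes, and those encoded by Fcrla and Fcrlb stay inside the cell. EBF1 and PAX5, the products of the genes that were heterozygous in the mutant mice, are the transcription factors that set up and keep B cell identity.

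Fcgr2b and Fcgr3 lie close together on chromosome 1 and share a stretch of nearly identical coding sequence. This limits how well sequencing reads can be told apart, and the stretch is shown here because several results turn on the ratio of both genes. The following 180 bases (GENCODE M21, mouse build GRCm38, coding strand) run from base 278 to 457 of the 1020-base coding sequence of Fcgr2b and from base 263 to 442 of the 801-base coding sequence of Fcgr3. The capital letter marks the single base at which they differ.
Fcgr2b: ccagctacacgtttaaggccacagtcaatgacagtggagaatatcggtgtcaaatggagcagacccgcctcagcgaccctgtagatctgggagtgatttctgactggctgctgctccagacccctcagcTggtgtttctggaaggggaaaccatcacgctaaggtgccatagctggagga
Fcgr3: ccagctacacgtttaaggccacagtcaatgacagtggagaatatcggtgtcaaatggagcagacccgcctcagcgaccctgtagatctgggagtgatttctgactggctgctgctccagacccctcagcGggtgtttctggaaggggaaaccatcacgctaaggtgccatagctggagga
Over 790 aligned coding bases the genes were 85.4% identical, with 129 identical bases as the longest run. Of the 50-base words in the annotated transcripts of Fcgr3, 9.58% also occurred in Fcgr2b, and of those of Fcgr2b 2.92% occurred in Fcgr3 and 6.95% in any other gene. Fcrl6 shared 0.802% of its words with other genes, and Fcrla, Fcrlb, Fcrl1, Fcrl5 and Fcer1g shared 0%. Levels of Fcgr2b and Fcgr3 are therefore uncertain to the extent that the authors' counting split reads between them. The ratio of both genes nevertheless ranged from 0.0231 in dHet proB library 2 to 1.95 in dHet proB library 3.

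The promoters of the neighbours Fcrla, Fcgr2b and Fcgr3 are shown because these genes lie close together yet followed different patterns across the libraries. They are taken from RefSeq (GRCm38.p6), run 5′ to 3′ on the minus strand of chromosome 1 from 250 bases before to 50 bases after the annotated start, and carry matches to the searched motifs in capitals. For Fcgr3 the first of its listed start sites was used.
Fcrla, chr1:170927534-170927833: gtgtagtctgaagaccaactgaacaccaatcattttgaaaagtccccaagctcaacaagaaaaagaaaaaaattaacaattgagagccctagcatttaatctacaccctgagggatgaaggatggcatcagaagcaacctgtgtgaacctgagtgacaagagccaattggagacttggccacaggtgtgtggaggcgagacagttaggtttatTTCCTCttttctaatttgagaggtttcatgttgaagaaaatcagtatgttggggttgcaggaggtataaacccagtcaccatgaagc
Fcgr2b, chr1:170976022-170976321: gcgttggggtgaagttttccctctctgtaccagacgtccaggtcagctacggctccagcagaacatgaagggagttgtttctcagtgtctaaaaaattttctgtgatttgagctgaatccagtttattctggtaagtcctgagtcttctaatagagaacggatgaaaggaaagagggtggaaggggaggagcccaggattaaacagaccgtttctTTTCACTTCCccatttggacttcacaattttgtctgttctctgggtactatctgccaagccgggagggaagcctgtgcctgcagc
Fcgr3, chr1:171059345-171059644: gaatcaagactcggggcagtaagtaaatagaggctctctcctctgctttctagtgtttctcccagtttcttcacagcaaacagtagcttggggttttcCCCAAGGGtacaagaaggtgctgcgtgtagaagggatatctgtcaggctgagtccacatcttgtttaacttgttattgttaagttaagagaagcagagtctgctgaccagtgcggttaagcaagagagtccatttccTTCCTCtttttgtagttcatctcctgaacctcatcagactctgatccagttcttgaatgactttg
The half-site pair bound by EBF1, searched as CCCNNGGG, which reads alike on both strands, stood in 13.7% of 32851 RefSeq promoters of this length and in 1 of the 8 members, Fcgr3, with its first base at -152 from the start. The core of sites for PU.1, a factor of myeloid and B-lineage cells, was searched as GAGGAA or TTCCTC. It stood in 28.3% of all promoters and in those of Fcrl1, Fcrla (at -37), Fcrlb and Fcgr3 (at -15). The composite site of ETS and IRF factors was searched as GGAA and GAAA with any 2 bases between them, or TTTC and TTCC on the other strand. It stood in 2.72% of all promoters and, within the set, in Fcgr2b alone, at -35. The letters of the PU.1 core and of the composite site can overlap, but no promoter of the set held both.

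**Figure D1:**
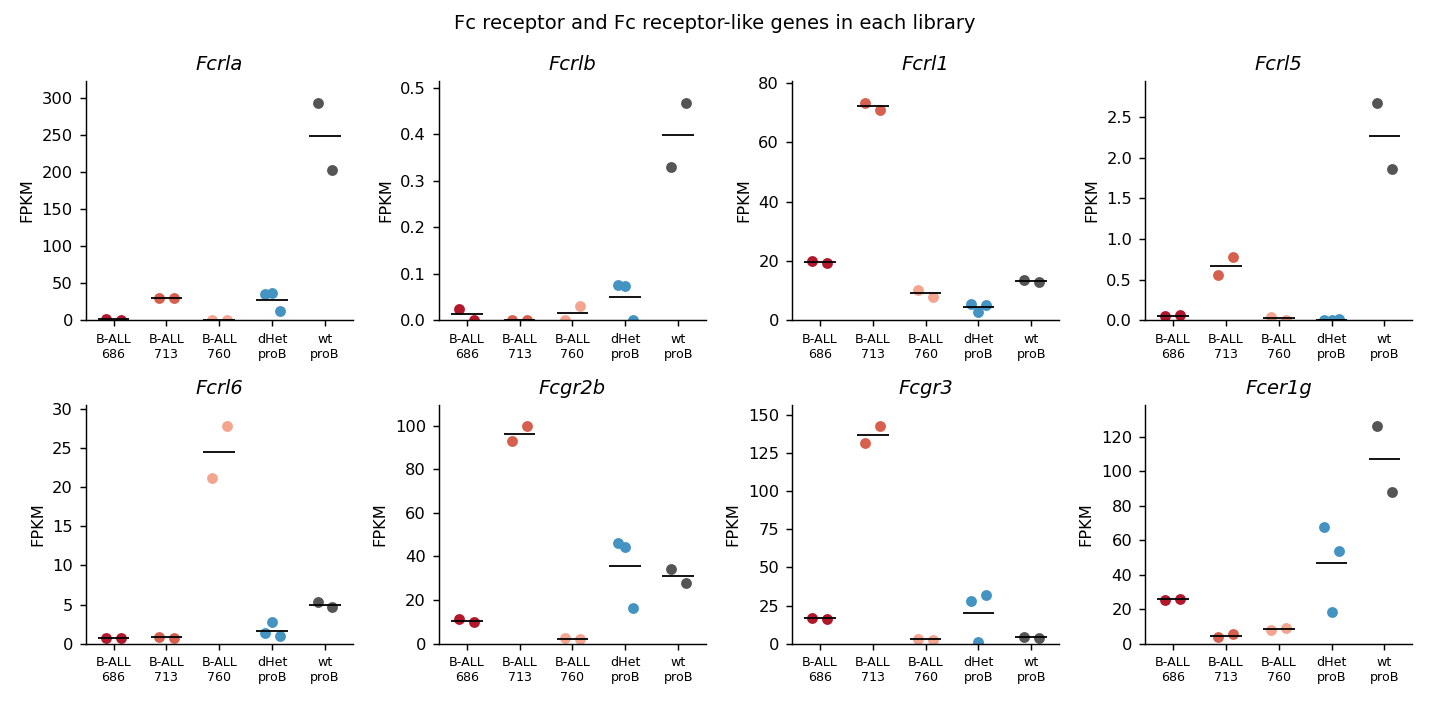
Level of the 8 genes (vertical axes, FPKM on a linear scale that differs between panels) in each library; points are libraries and bars the mean of each mouse or group. Mouse 713 stands highest for Fcrl1, Fcgr2b and Fcgr3, mouse 760 for Fcrl6, and wt proB for Fcrla, Fcrlb, Fcrl5 and Fcer1g.

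Levels are given in FPKM, which divides the fragments of a gene by its length and by the size of the library, so that genes can be set side by side. The FPKM of a library summed to between 505261 and 638953, and 9850 to 10595 genes reached FPKM 1. The depth of the libraries is unknown, but the smallest step between values of weakly expressed genes was 1.13 to 1.57 times as large in the other libraries as in library 1 of mouse 686. No library was a copy of another: libraries of the same mouse correlated at r = 0.980 to 0.993 across genes, the wt proB libraries at 0.986 and the dHet proB libraries at 0.954 to 0.973. The targeted genes were transcribed everywhere. Ebf1 had 151 to 212 FPKM in the leukemias, 283 to 369 FPKM in dHet proB and 297 and 542 FPKM in wt proB. Pax5 had 35.3 to 52.8 FPKM in the leukemias, 70.9 to 99.0 FPKM in dHet proB and 101 and 57.2 FPKM in wt proB. FPKM of a whole gene does not tell its intact and its targeted copy apart. Of the early B cell markers, the pre-B cell receptor genes Vpreb1 and Igll1 lay at 1352 FPKM or more and Cd79a, a chain of the B cell receptor, at 1247 FPKM or more in all 11 libraries. Others varied within and between the groups. Dntt, which adds bases to rearranging antigen receptor genes, had 62.7 and 58.2 FPKM in mouse 686, 20.8 and 24.3 FPKM in mouse 713 and 470 and 436 FPKM in mouse 760, against 95.5, 26.6 and 27.8 FPKM in dHet proB and 445 and 454 FPKM in wt proB. Rag2, labelled as deleted in dHet proB, had 11.1 to 16.6 FPKM in the leukemias, 8.57 to 12.6 FPKM in dHet proB and 37.8 and 31.1 FPKM in wt proB; how much of Rag2 the deletion removes is not stated by the labels. The name proB is given by the labels to the dHet and wt cells alone.

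Fcrla, whose human product binds immunoglobulin within the endoplasmic reticulum of B cells, was the member with the widest range. It had 1.66 and 0.684 FPKM in mouse 686, 30.0 and 29.5 FPKM in mouse 713 and 0.264 and 0.342 FPKM in mouse 760, against 35.1, 36.0 and 11.9 FPKM in dHet proB and 294 and 203 FPKM in wt proB. Every leukemia and every dHet proB library lay below both wt proB libraries. Mouse 713 lay within the range of dHet proB, and the other mice lay below it. In order of level wt proB came first, dHet proB and mouse 713 followed without separating, and mouse 686 came before mouse 760. In bulk RNA such a difference can come from fewer cells that express a gene or from less RNA per cell, which cannot be told apart. Fcrlb, the other intracellular relative, lies next to Fcrla and was close to the floor of detection. It had 0.0246 and 0 FPKM in mouse 686, 0 and 0 FPKM in mouse 713 and 0 and 0.0309 FPKM in mouse 760, against 0.0752, 0.0729 and 0 FPKM in dHet proB and 0.330 and 0.468 FPKM in wt proB. Fcrlb reached FPKM 1 in no library and was left out of the test.

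Fcrl1, Fcrl5 and Fcrl6 encode surface proteins, and each had its own order of groups. Fcrl1, a B cell co-receptor known in human cells to enhance signalling, had 19.9 and 19.4 FPKM in mouse 686, 73.4 and 70.9 FPKM in mouse 713 and 10.2 and 7.90 FPKM in mouse 760. It had 5.33, 2.66 and 5.00 FPKM in dHet proB and 13.4 and 12.9 FPKM in wt proB. All 6 leukemia libraries thus lay above all dHet proB libraries, while wt proB fell between mouse 686 and mouse 760. Fcrl1 was the one member at which the leukemias and dHet proB did not overlap. Fcrl5, which marks subsets of mature mouse B cells, had 0.0463 and 0.0602 FPKM in mouse 686, 0.562 and 0.780 FPKM in mouse 713 and 0.0387 and 0 FPKM in mouse 760. It was listed at 0, 0 and 0.0162 FPKM in dHet proB, against 2.68 and 1.87 FPKM in wt proB. Only the wt proB libraries reached FPKM 1, mouse 713 came next, and mice 686 and 760 lay within a narrow span near 0. Fcrl6, whose human counterpart is a receptor of cytotoxic lymphocytes, had 0.763 and 0.693 FPKM in mouse 686, 0.923 and 0.675 FPKM in mouse 713 and 21.2 and 27.7 FPKM in mouse 760. It had 1.33, 2.74 and 1.00 FPKM in dHet proB and 5.33 and 4.64 FPKM in wt proB. Mouse 760 was the one source above wt proB, and mice 686 and 713, which overlapped each other, were the lowest.

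The high Fcrl6 of mouse 760 went with high levels of the NK cell marker Nkg7 and of some T cell genes, but not of most other markers of these cells. Nkg7, a granule membrane protein of cytotoxic cells, had 328 and 265 FPKM in mouse 760, 37.8 FPKM on average in mouse 686 and 21.9 FPKM in mouse 713, against 7.74, 2.72 and 6.49 FPKM in dHet proB and 19.1 and 21.1 FPKM in wt proB. The 10 NK cell markers summed to 334 and 271 FPKM in mouse 760, of which Nkg7 was the bulk. They summed to 52.2 to 60.9 FPKM in the other leukemias, 8.03 to 35.2 FPKM in dHet proB and 40.0 and 44.6 FPKM in wt proB. In mouse 760 3 of the 10 markers reached FPKM 1 in each library, against 5 or 6 in the other leukemias. Of the defining NK genes, Ncr1 had 0.307 and 0.397 FPKM, Gzma 0.496 and 0.453 FPKM and Prf1 0.120 and 0.179 FPKM in mouse 760. Apart from Nkg7, none of the 10 NK cell markers was at its highest in mouse 760. The 10 T cell markers summed to 245 and 228 FPKM in mouse 760 and 44.5 to 50.9 FPKM in the other leukemias, against 15.5 to 24.1 FPKM in dHet proB and 52.5 and 44.2 FPKM in wt proB. Lat, an adaptor of the T cell receptor, was the bulk of that sum in mouse 760. It had 200 and 185 FPKM there and at most 33.7 FPKM in any other library. Thy1, a surface protein of T cells, had 37.8 and 36.7 FPKM in mouse 760 and at most 5.30 FPKM elsewhere. Cd247, the ITAM chain of the T cell receptor, had 20.0 and 14.8 FPKM in mouse 760 and at most 2.18 FPKM elsewhere. By contrast, Cd3d, Cd3e, Cd3g, Cd4, Cd8a and Cd8b1 were lower in both libraries of mouse 760 than in the other leukemias. Cd3d had 1.61 and 1.54 FPKM in mouse 760 and 3.01 to 4.12 FPKM in the other leukemias. Cd3e had 1.18 and 1.46 FPKM in mouse 760 and 4.03 to 5.41 FPKM in the other leukemias. Cd3d and Cd3e lay below FPKM 1 in dHet proB and wt proB. The part of T or NK cells in the Fcrl6 of mouse 760 was not tested.

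Fcgr2b and Fcgr3 encode the inhibitory and an activating receptor for IgG. Fcgr2b had 11.1 and 9.89 FPKM in mouse 686, 92.8 and 99.6 FPKM in mouse 713 and 2.5 and 2.18 FPKM in mouse 760. It had 46.1, 44.4 and 16.2 FPKM in dHet proB and 34.3 and 27.9 FPKM in wt proB, so that dHet proB spanned wt proB while mouse 713 lay above both and the other mice below both. Fcgr3 had 16.8 and 16.4 FPKM in mouse 686, 131 and 142 FPKM in mouse 713 and 3.07 and 2.5 FPKM in mouse 760. It had 27.9, 1.03 and 31.6 FPKM in dHet proB and 4.71 and 3.84 FPKM in wt proB. Within dHet proB, library 2 stood far below the others for Fcgr3 but level with library 1 for Fcgr2b. The ratio of Fcgr3 to Fcgr2b lay above wt proB in every leukemia. It came to 1.51 and 1.66 for mouse 686, to 1.41 and 1.43 for mouse 713 and to 1.23 and 1.14 for mouse 760. The dHet proB libraries had ratios of 0.605, 0.0231 and 1.95, and the wt proB libraries had ratios of 0.137 and 0.138. Across the leukemias both genes thus varied together, Fcgr2b between 2.18 and 99.6 FPKM, while their ratio stayed between 1.14 and 1.66. Mouse 713, high for both and for Fcrl1, was also the leukemia with the most RNA of mature B cell markers. The 11 of them summed to 1976 and 1937 FPKM in mouse 713 and 534 to 787 FPKM in the other leukemias, against 261 to 680 FPKM in dHet proB and 1957 and 1794 FPKM in wt proB. H2-Ab1, a class II antigen presentation gene, had 814 and 804 FPKM in mouse 713 and 104 to 194 FPKM in the other leukemias, against 1.54 to 5.30 FPKM in dHet proB and 1047 and 1009 FPKM in wt proB. The part of mature B cells in the Fcrla, Fcrl1, Fcgr2b and Fcgr3 of mouse 713 was not tested. Fcgr4, a further activating IgG receptor that lies between them, had 1.60 and 1.15 FPKM in mouse 686, 2.72 and 2.10 FPKM in mouse 713 and 0.311 and 0.128 FPKM in mouse 760. It was listed at 0 in all 3 dHet proB libraries and had 0.255 and 0.516 FPKM in wt proB.

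Fcer1g, the gamma chain that Fcgr3 needs at the cell surface, did not follow Fcgr3. It had 25.3 and 26.2 FPKM in mouse 686, 3.70 and 5.46 FPKM in mouse 713 and 7.96 and 9.23 FPKM in mouse 760, against 67.9, 18.4 and 53.9 FPKM in dHet proB and 126 and 88.1 FPKM in wt proB. All leukemias and all dHet proB libraries lay below wt proB, and mouse 713, the highest for Fcgr3, was the lowest for Fcer1g. The ratio of Fcer1g to Fcgr3 came to 0.0282 and 0.0384 for mouse 713, to 1.51 and 1.60 for mouse 686 and to 2.59 and 3.70 for mouse 760. The dHet proB libraries had ratios of 2.44, 17.9 and 1.71, and the wt proB libraries had 26.7 and 23.0.

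**Figure D2:**
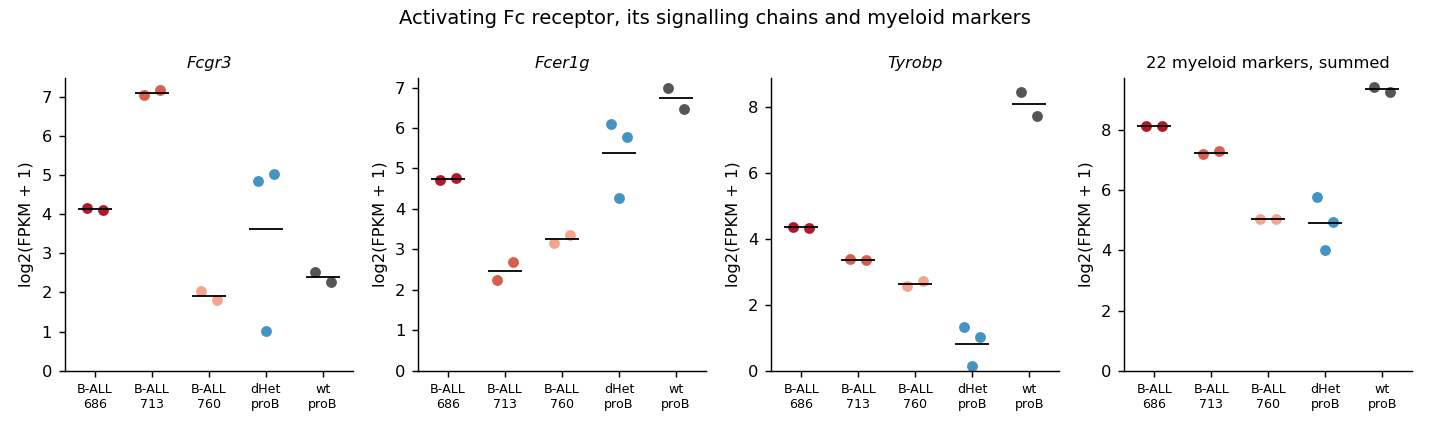
Fcgr3, the signalling chains Fcer1g and Tyrobp, and the summed FPKM of 22 myeloid markers (vertical axes, log2 of FPKM + 1) in each library; points are libraries and bars are means. Mouse 713 is highest for Fcgr3 and lowest for Fcer1g, and dHet proB libraries are lowest for Tyrobp.

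Tyrobp encodes the ITAM chain of many myeloid and NK cell receptors and served as a comparison for Fcer1g. It had 19.4 and 19.3 FPKM in mouse 686, 9.46 and 9.17 FPKM in mouse 713 and 4.93 and 5.53 FPKM in mouse 760, against 1.49, 0.109 and 1.02 FPKM in dHet proB and 349 and 210 FPKM in wt proB. The ratio of Fcer1g to Tyrobp ran from 0.391 to 1.67 in the leukemias. It came to 45.6, 169 and 53.1 for the dHet proB libraries and to 0.360 and 0.420 for those of wt proB. The dHet proB libraries thus had the highest of these ratios. The 22 myeloid markers summed to 280 and 277 FPKM in mouse 686, 145 and 155 FPKM in mouse 713 and 31.8 and 31.7 FPKM in mouse 760, against 53.4, 15 and 29.7 FPKM in dHet proB and 694 and 616 FPKM in wt proB. Of the 22, 2 to 11 reached FPKM 1 in the leukemias and 1 to 4 in dHet proB, against 18 and 15 in wt proB. The neutrophil genes S100a8 and Ngp had at most 0.441 and 1.49 FPKM in dHet proB, against 82.5 to 129 and 144 to 213 FPKM in wt proB. Csf1r, the growth factor receptor of macrophages, was listed at 0, 0 and 0.0108 FPKM in dHet proB. Other myeloid markers were present there. Lyz2, the lysozyme gene of phagocytes, had 26.1 to 204 FPKM in the leukemias, 39.4, 11.9 and 24 FPKM in dHet proB and 163 and 116 FPKM in wt proB. Itgam, an integrin chain of myeloid cells, had 0.798 to 5.32 FPKM in the leukemias, 9.23, 0.809 and 5.06 FPKM in dHet proB and 3.70 and 3.68 FPKM in wt proB. Within dHet proB, library 2 was the lowest and library 1 the highest for Lyz2, Itgam and Fcer1g alike. The part of other cells in the Fcer1g of the leukemias, of dHet proB and of wt proB was not tested.

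The leukemias differed from each other in 6 of the 7 members that reached the level needed for testing. A mouse was counted as standing apart where both its libraries lay 2-fold or more beyond every library of the other mice on the scale of FPKM + 1. Mouse 713 stood above the others for Fcrla, Fcrl1, Fcgr2b and Fcgr3, by log2 gaps of 3.52, 1.78, 2.95 and 2.90, while 3.07% of all tested genes did so in that mouse. Mouse 760 stood above the others for Fcrl6 by 3.53, as did 1.09% of genes, and below them for Fcgr2b by 1.64 and for Fcgr3 by 2.09, as did 1.07%. Mouse 686 stood above the others for Fcer1g by 1.36, as did 0.423% of genes. Fcrl5 stood apart in no mouse by this measure, since its levels were below FPKM 1 in all of them. The set was chosen partly for the difference in Fcrl6, so nothing is read from these counts.

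The members were tested in dHet proB against wt proB, a comparison that involves no leukemia but shares its wt proB libraries with the contrast in which Fcrla was picked. The limma test on log2(FPKM + 1) covered 11107 genes, among them 7 members, and p-values were adjusted by the method of Benjamini and Hochberg. Fcrl5 fell, by 1.69 on the log2 scale (SE 0.25, adjusted p = 0.0051). It had been testable through the wt proB libraries alone, in which it is high, and so had to differ; its call is a description. No other member passed. Fcrla had a log2 fold change of -3.25 (95% interval -6.03 to -0.47, adjusted p = 0.154) and Fcrl1 one of -1.45 (-3.09 to 0.18, adjusted p = 0.28). Fcer1g came to -1.34 (-2.99 to 0.30, adjusted p = 0.323) and Fcrl6 to -1.21 (-3.63 to 1.21, adjusted p = 0.567). Fcgr2b came to 0.06 (-2.70 to 2.81, adjusted p = 0.986) and Fcgr3 to 1.24 (-2.42 to 4.89, adjusted p = 0.717). In this fit the spread of a gene is shared by all 3 groups, the leukemias included. With the dHet proB and wt proB libraries alone, Fcrla (adjusted p = 0.0095), Fcrl1 (adjusted p = 0.0265) and Fcrl5 (adjusted p = 0.0014) passed as lower. Of these, Fcrla had been picked on a contrast with the same wt proB libraries and Fcrl5 had to differ, so that their p-values are descriptions. Without mouse 713 the same 3 members passed, with adjusted p = 0.0055 for Fcrla and adjusted p = 0.0439 for Fcrl1. Without mouse 760, Fcrl6 passed as lower (adjusted p = 0.0412). Its fold change stayed at -1.21, and the mouse left out is the one for which Fcrl6 was picked, so this p-value is a description too.

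The called share of all genes in this comparison was 6.5% lower and 2.18% higher, against 1 of 7 members lower. At an unadjusted p under 0.05, 2 members were lower, Fcrla and Fcrl5, and no member was higher. Every dHet proB library lay below both wt proB libraries for 5 members, Fcrla, Fcrl1, Fcrl5, Fcrl6 and Fcer1g, as for 24.1% of all tested genes. The share of higher genes among the called ones was 25.1% as deposited and 41.8% after quantile normalization. No member lay wholly above wt proB, as 18.9% of genes did. The median log2 fold change was -1.34 over the 7 members and -0.04 over all genes tested. Neither dHet nor wt proB libraries are said by the labels to come from separate animals or cultures. The p-values of the main fit thus measure the spread between these libraries, pooled with that between the leukemia mice. Without dHet proB library 2, the fold change of Fcgr3 was 2.54 (adjusted p = 0.327), that of Fcer1g was -0.79 and that of Fcgr2b was -0.17.

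**Figure D3:**
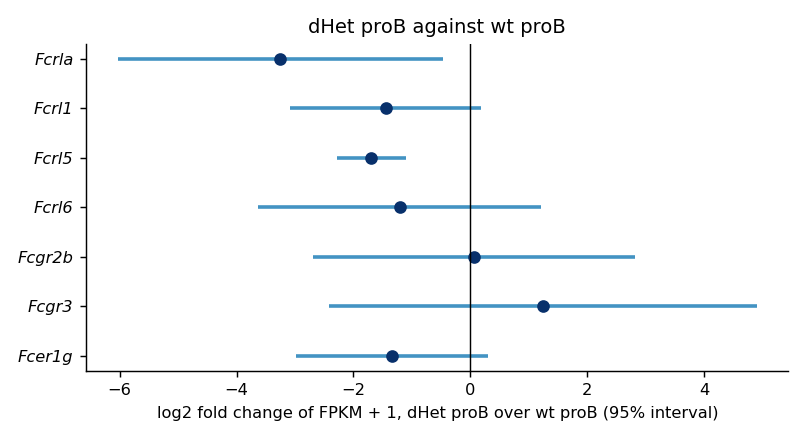
Log2 fold change of FPKM + 1 in dHet proB over wt proB for the 7 members tested (horizontal axis, points) with 95% intervals from limma (bars). The intervals of Fcrla and Fcrl5 lie below 0, and those of the other members include 0.

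Set against the normal and the pre-leukemic cells, the leukemias gave the following fold changes, which are given without a test because the members were picked on them. Against wt proB, the difference in mean log2(FPKM + 1) over the 3 mice was -5.80 for Fcrla, -3.25 for Fcer1g, -1.42 for Fcrl5, -1.04 for Fcgr2b and -0.48 for Fcrl6. It was 0.80 for Fcrl1 and 1.99 for Fcgr3. The leukemias lay wholly below wt proB for Fcrla, Fcrl5 and Fcer1g, as for 24.7% of all tested genes, and the groups overlapped for the other 4 members. Against dHet proB, it was -2.55 for Fcrla, -1.90 for Fcer1g and -1.10 for Fcgr2b. It was 2.25 for Fcrl1, 0.75 for Fcgr3, 0.72 for Fcrl6 and 0.27 for Fcrl5. The leukemias lay wholly above dHet proB for Fcrl1, as for 19.5% of all tested genes, and overlapped with it for the others. The comparison with wt proB and that of dHet proB with wt proB share the wt proB libraries, so that their fold changes are not independent of each other. For Fcgr2b and Fcrl6 the mean FPKM, carried by 1 mouse, lay the other way. Fcgr2b averaged 36.4 FPKM in the leukemias, 35.6 FPKM in dHet proB and 31.1 FPKM in wt proB, and Fcrl6 averaged 8.66 FPKM in the leukemias and 4.99 FPKM in wt proB. A mean over the 3 mice hides their spread: Fcgr3 averaged 52.0 ± 73.7 FPKM in the leukemias, 20.2 ± 16.7 FPKM in dHet proB and 4.28 ± 0.620 FPKM in wt proB (SD, n = 3 mice, 3 and 2 libraries).

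Of 11 other Fc receptor genes in the tables, 4 were expressed highly enough to be tested. Fcmr, which encodes the receptor for IgM, had 1.51 ± 1.39 FPKM in the leukemias and 0.415 ± 0.136 FPKM in dHet proB, against 73.0 ± 41.2 FPKM in wt proB. It fell by 4.91 in the leukemias (adjusted p = 0.00067, lower in 6 of 6 libraries) and fell by 5.59 in dHet proB (adjusted p = 0.000403, lower in 3 of 3). Fcgrt, the heavy chain of the neonatal Fc receptor that recycles IgG, had 0.523 ± 0.350 FPKM in the leukemias, 0.0516 ± 0.0678 FPKM in dHet proB and 7.41 ± 0.434 FPKM in wt proB, and fell by 2.49 in the leukemias (adjusted p = 0.000556). Fcmr and Fcgrt were the 2 of 4 that passed in the leukemias against wt proB, where 10.0% of all genes were called lower and 8.15% higher. Rescaling the libraries to TPM shifted the median of all genes by -0.20 there and lowered the share of higher genes among the called ones to 23.8%, against 44.9% as deposited. In dHet proB 3 of 4 passed as lower. Fcmr and Fcgrt were tested only through wt proB, in which they are high, and so had to differ; their calls are descriptions. Without either wt proB library 1 passed in each of these comparisons. The third that passed in dHet proB was Fcer2a, the low-affinity IgE receptor of mature B cells, at -3.38 (adjusted p = 0.0179). Its adjusted p was 0.0599 without dHet proB library 1, 0.213 without wt proB library 1 and 0.125 without wt proB library 2. Fcgr4 was called higher in the leukemias than in dHet proB at 1.1 (adjusted p = 0.0495), where 14.5% of all genes were called higher and 11% lower. It was tested only through the leukemias, so that this call is a description. Fcgr4 lost that call in 11 of 22 other settings, with adjusted p up to 0.127 without dHet proB library 1. In that comparison the share of higher genes among the called ones was 57.0% as deposited, 38.7% after rescaling to TPM, which shifted the median of all genes by -0.15, and 46.5% after quantile normalization. Both chains of the high-affinity IgE receptor that pair with Fcer1g on mast cells were near 0: Fcer1a had at most 0.124 FPKM and Ms4a2 at most 0.0238 FPKM in any library. The 10 mast cell and basophil markers summed to 2.15 to 9.53 FPKM in the leukemias, 0 to 0.294 FPKM in dHet proB and 5.08 and 10.7 FPKM in wt proB.

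The partners that carry the signal of these receptors changed unevenly. Of 21 ITAM partners and kinases, all of which were tested, 7 rose and 2 fell in the leukemias against dHet proB, 2 rose and 4 fell in the leukemias against wt proB, and 5 fell in dHet proB against wt proB. The 7 became 3 without dHet proB library 1 and 4 without dHet proB library 2 or either wt proB library. The 4 became 1 without wt proB library 1 and 2 without wt proB library 2, mouse 686 or dHet proB library 2, and the 5 became 2 and 3 without wt proB library 1 and 2. Tyrobp, whose calls held in every setting run, fell by 7.26 in dHet proB (adjusted p = 0.000233) and by 4.64 in the leukemias (adjusted p = 0.00132) relative to wt proB. It rose by 2.62 in the leukemias over dHet proB (adjusted p = 0.00811). Lat2, an adaptor downstream of ITAM receptors in B and mast cells, had 95.6 ± 50.6 FPKM in the leukemias against 7.35 ± 5.09 FPKM in dHet proB, a rise of 3.65 (adjusted p = 0.00453). Blnk, the adaptor that links Syk to calcium signalling in B cells, fell by 1.47 in the same comparison (adjusted p = 0.0112). Syk itself, the kinase that reads phosphorylated ITAMs, had 63.9 ± 23.3 FPKM in the leukemias, 108 ± 22.6 FPKM in dHet proB and 97.6 ± 1.61 FPKM in wt proB and passed in no comparison, with adjusted p = 0.0607, 0.148 and 0.86 for the leukemias against dHet proB, the leukemias against wt proB and dHet proB against wt proB. The median log2 fold change of these 21 genes was -0.03, -0.08 and 0.12 in the same comparisons, beside 0.04, -0.02 and -0.04 over all genes tested.

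Of 9 ITIM effectors, 2 rose in the leukemias against dHet proB and 1 rose against wt proB. In dHet proB against wt proB 1 rose and 1 fell. The called share of all genes was 14.5% higher in the first comparison and 8.15% higher in the second. In the last it was 2.18% higher and 6.5% lower. The median log2 fold change of the 9 was 0.06, 0.30 and 0.07 in these comparisons, beside 0.04, -0.02 and -0.04 over all genes tested. Inpp5d, the phosphatase that Fcgr2b recruits, had 113 ± 55.1 FPKM in the leukemias, 110 ± 20.7 FPKM in dHet proB and 91.3 ± 2.81 FPKM in wt proB and passed in no comparison (adjusted p = 0.88 against dHet proB, 0.827 against wt proB and 0.798 for dHet proB against wt proB). Ptpn6, a tyrosine phosphatase recruited by many ITIMs, had 217 ± 60.6 FPKM in the leukemias against 70.7 ± 16.5 FPKM in dHet proB, a rise of 1.60 (adjusted p = 0.00519). Dok2, an adaptor that dampens tyrosine kinase signalling, had 102 ± 22.8 FPKM in the leukemias, 31.8 ± 12.7 FPKM in dHet proB and 7.59 ± 1.27 FPKM in wt proB. It rose by 1.69 in the leukemias over dHet proB (adjusted p = 0.00738) and by 3.56 over wt proB (adjusted p = 0.000615). Of 9 other receptors with ITIMs, 4 fell in the leukemias against wt proB, 1 against dHet proB and 2 in dHet proB against wt proB. Of the 4, 2 were tested only through wt proB and so had to differ. The 2 that fell in dHet proB were also tested only through wt proB, so their calls are descriptions. Without wt proB library 1 the 4 became 1, and without library 2 they became 0 (limma). Cd72, an inhibitory co-receptor of B cells, had 12.2 and 12.3 FPKM on average in mice 686 and 713 and 64.4 FPKM in mouse 760, against 269 ± 67.8 FPKM in dHet proB, a fall of 3.55 (adjusted p = 0.00581).

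Of 12 B-lineage regulators, 6 fell in the leukemias against wt proB, 5 against dHet proB and 1 in dHet proB against wt proB. The 6 became 2 without either wt proB library. The 5 became 2 without mouse 760 or dHet proB library 1, 3 without mouse 686 or dHet proB library 2, and 9 without mouse 713. Bach2, a repressor that holds back plasma cell fate, fell by 3.18 in the leukemias against wt proB (adjusted p = 0.00067) and by 3.24 against dHet proB (adjusted p = 0.00057). Foxo1, a factor of early B cells, fell by 1.77 against dHet proB (adjusted p = 0.00522). Spi1, which encodes PU.1, had 107 ± 31.1 FPKM in the leukemias, 88.1 ± 27.2 FPKM in dHet proB and 82.7 ± 11.6 FPKM in wt proB, and did not pass in any comparison (adjusted p = 0.524, 0.523 and 0.965 in the order just used for Syk). Irf8, an IRF partner of PU.1, had 14.7 FPKM in mouse 686, 225 FPKM in mouse 713 and 22 FPKM in mouse 760, so that it was highest in the leukemia with the highest Fcgr2b and Fcgr3. It had 50.6 ± 10.2 FPKM in dHet proB and 347 ± 114 FPKM in wt proB.

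Markers of other cells differed between the groups in which Fc receptor genes differed. Of 17 tested myeloid markers, 12 fell in dHet proB and 12 in the leukemias against wt proB, and 2 rose in the leukemias against dHet proB. Of the 2 that rose, Csf1r was tested only through the leukemias and so had to differ. The other lost its call in 9 of 25 other settings. Of the 12 that fell, 10 in each comparison were tested only through wt proB and so had to differ, as were 281 of 722 such genes in dHet proB and 285 of 1112 in the leukemias. Without either wt proB library, 2 fell in each of the first comparisons. The 12 markers of plasmacytoid dendritic cells summed to 115 to 157 FPKM in the leukemias, 87.9 to 139 FPKM in dHet proB and 815 and 566 FPKM in wt proB. All 12 reached FPKM 1 in wt proB, and 9 of them fell in dHet proB and 10 in the leukemias, 4 of each tested only through wt proB. Without either wt proB library 4 fell in dHet proB, and in the leukemias 4 fell without library 1 and 6 without library 2. Siglech, a defining receptor of those cells, was listed at 0 in all 3 dHet proB libraries and had at most 1.65 FPKM in the leukemias, against 132 and 77.3 FPKM in wt proB. The 11 mature B cell markers summed to 534 to 1976 FPKM in the leukemias, 261 to 680 FPKM in dHet proB and 1794 and 1957 FPKM in wt proB. Of 10 tested, 6 fell in dHet proB and 3 in the leukemias against wt proB, and 4 rose in the leukemias against dHet proB. In each comparison with wt proB, 1 of those that fell was tested only through wt proB and so had to differ. The 6 became 3 without either wt proB library, the 3 became 6 without mouse 713, and the 4 became 2 without dHet proB library 1. The 10 T cell markers summed to 44.5 to 245 FPKM in the leukemias, 15.5 to 24.1 FPKM in dHet proB and 44.2 and 52.5 FPKM in wt proB, and 6 of 9 tested rose in the leukemias against dHet proB, 3 of them tested only through the leukemias. The 9 markers of OP9 stroma summed to at most 3.25 FPKM in any library, and none was tested. The part that myeloid, dendritic, mature B or T cells had in the levels of Fcrla, Fcrl5, Fcer1g, Tyrobp or Fcmr was not tested.

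**Figure D4:**
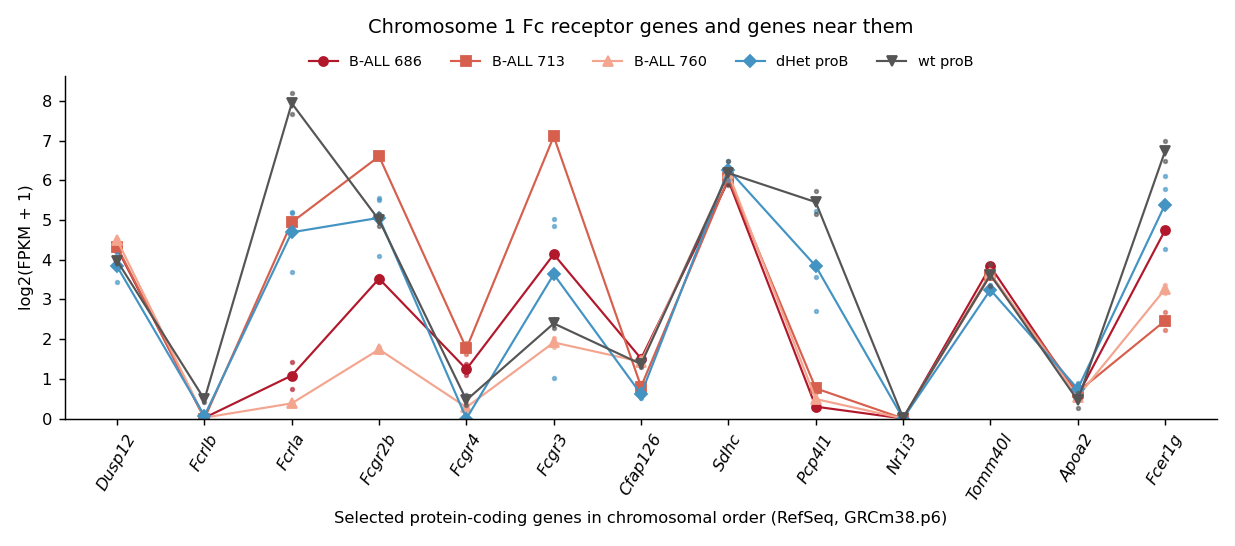
Level of the chromosome 1 Fc receptor genes and selected genes near them (vertical axis, log2 of FPKM + 1) in chromosomal order (horizontal axis, not to scale); large symbols are means of a mouse or group and small points the libraries. Fcrla, Fcgr2b, Fcgr3, Pcp4l1 and Fcer1g spread widely between the mice and groups, while Dusp12 and Sdhc span a narrow range.

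Neighbouring genes differed in their patterns. On chromosome 1, RefSeq places Dusp12, Fcrlb, Fcrla, Fcgr2b, Fcgr4, Fcgr3, Cfap126, Sdhc, Pcp4l1, Nr1i3, Tomm40l, Apoa2 and Fcer1g in this order, among other genes. The flanking phosphatase gene Dusp12 had 17.8 to 22.1 FPKM in the leukemias, 9.83 to 16.6 FPKM in dHet proB and 15.3 and 14.1 FPKM in wt proB. Sdhc, a subunit of respiratory complex II, had 62.4 to 72.5 FPKM in the leukemias, 63.6 to 89.0 FPKM in dHet proB and 88.2 and 58 FPKM in wt proB. Between these genes, Fcrla spanned from 0.264 to 294 FPKM. Pcp4l1, a gene known from neurons, had 0.174 to 0.791 FPKM in the leukemias, against 10.9, 36.5 and 5.58 FPKM in dHet proB and 34.7 and 52.5 FPKM in wt proB. Fcrl6 lies elsewhere on the same chromosome between Slamf8 and Dusp23. Dusp23 had 9.98 and 10.1 FPKM in mouse 760 and 2.99 to 4.64 FPKM in the other leukemias, against 4.90 to 8.29 FPKM in dHet proB and 10.5 and 12.5 FPKM in wt proB, whereas Slamf8 had at most 0.553 FPKM in any library. Fcrl1 and Fcrl5 are neighbours on chromosome 3, between Cd5l and Etv3. Etv3, an ETS repressor, had 16.0 to 21.4 FPKM in the leukemias, 7.26 to 11.3 FPKM in dHet proB and 7.08 and 8.32 FPKM in wt proB. Cd5l, a macrophage gene, had 1.17 and 1.05 FPKM in mouse 713 and 0.0922 to 0.256 FPKM in the other leukemias, against 0 to 0.0867 FPKM in dHet proB and 0.878 and 0.491 FPKM in wt proB.

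Across the 11 libraries the correlations between members ran from -0.71 to 0.81, as a description over log2(FPKM + 1) with libraries of a mouse not independent. Pearson r was 0.81 between Fcrl5 and Fcrlb, 0.78 between Fcrl5 and Fcrla, 0.76 between Fcrla and Fcgr2b and 0.73 between Fcrlb and Fcrla. Fcgr3 came to 0.72 with Fcrl1, 0.57 with Fcgr2b, 0.08 with Fcrla, -0.33 with Fcer1g and -0.71 with Fcrl6. Among 7822 genes that reached FPKM 10 in a library, the pattern most like Fcrla was that of Bcl10, an adaptor of antigen receptor signalling (r = 0.98), followed by the cell cycle inhibitor gene Cdkn2d (0.98) and Serp1 (0.98). Bcl10 spanned a much smaller range, with 26.9 to 45.9 FPKM in the leukemias, 38.6 to 44.0 FPKM in dHet proB and 58.6 and 56.5 FPKM in wt proB. The genes most like Fcrl1 were the co-stimulatory ligand gene Cd86 (r = 0.98), Uvrag (0.98) and Irak3 (0.98). Cd86 had 9.42 and 9.09 FPKM in mouse 686, 41.5 and 40.7 FPKM in mouse 713 and 2.05 and 1.55 FPKM in mouse 760, against at most 0.0850 FPKM in dHet proB and 2.51 and 2.87 FPKM in wt proB. Those most like Fcrl6 were Krtcap3 (r = 0.96), Vill (0.93) and Gpr25 (0.92). Krtcap3 had 19.8 and 17.3 FPKM in mouse 760 and 0.170 to 0.441 FPKM in the other leukemias, against 0.230 to 0.338 FPKM in dHet proB and 1.86 and 1.61 FPKM in wt proB. Those most like Fcrl5 were Cd209a, a lectin of dendritic cells, Cldn10 and P2ry14 (r = 0.99 each). Cd209a had 4.24 and 3.4 FPKM in mouse 713 and at most 0.104 FPKM in the other leukemias, was listed at 0 in dHet proB, and had 42.4 and 36.6 FPKM in wt proB. Fcgr2b was most like Trp53i11 (0.97), Vimp (0.95) and Plekhm1 (0.94). Fcgr3 was most like Ctsa, a lysosomal protease gene (0.97), and Tbc1d22a (0.96), and Fcer1g was most like Psen2 (0.92), Dusp2 (0.92) and Manea (0.90). These correlations share the differences between the groups and mice, and the genes named were taken from the 3 highest of all genes compared.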

How the data were processed

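RNA was measured by sequencing in 11 libraries. The authors deposited FPKM per gene for each library, and per the submitters' processing notes they used bcl2fastq 2.20.0.422 and 0.3.1, Cuffdiff, Cuffnorm 2.2.1, Cufflinks 2.2.1 and STAR 2.5.3a with mouse build mm9. The gene annotation is not given in the sources used here. No counts were used and depth is unknown, so no counting error is given. Per the labels' title, dHet proB library 3 is replicate 3, while its source name repeats replicate 2.

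The members and all gene lists (13 lists with 150 genes in the tables) were chosen with earlier results of these data known. Values were used as log2(FPKM + 1), which understates changes of low genes. The libraries of each mouse were averaged, leaving 8 units, and the 11107 genes that reached FPKM 1 in 2 or more units were tested with limma 3.58.1 (R 4.3.3), with a trend, all 3 groups in 1 fit, two-sided. Calls are at a Benjamini-Hochberg adjusted p below 0.05. An exact test of 3 against 2 libraries cannot go below p = 0.1. The fit was tested on simulated data. All members, Ebf1, Pax5, the members' neighbours, Sdhc and Pcp4l1 near them, and the 3 most similar genes were named. A few genes these rules name are not reported here. From each list, up to 2 called genes per direction with the largest change qualified, and those whose calls held in every setting are named, with exceptions chosen after seeing their values (Fcer2a, Fcgr4, and as marker or partner levels Syk, Inpp5d, Spi1, Irf8, Nkg7, Ncr1, Gzma, Prf1, S100a8, Ngp, Csf1r, Lyz2, Itgam, Lat, Thy1, Cd247, H2-Ab1, Dntt, Rag2, Cd79a, Fcer1a, Ms4a2, Vpreb1 and Igll1). Cd3d, Cd3e, Cd3g, Cd4, Cd8a and Cd8b1 were likewise named as marker levels after seeing their values. The alternatives were another pseudocount, other filters, TPM or quantile scaling, no trend, fewer groups, 1 library per mouse, 11 libraries in 5 groups, a replicate block, and leaving out each library or mouse. Versions of the reference differ from mm9, so sequences carry the coordinates of GRCm38.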

Additional observations from a re-analysis of the deposited data

Results flagged for a closer look

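For 4 members, the leukemias lay on both sides of a comparison group, with every library of a mouse on one side of all its libraries. These differences between the mice were not tested. Values in parentheses are the log2 difference of FPKM + 1 between a mouse and the comparison group. The last value for each gene is that between the highest and the lowest mouse. Against wt proB, Fcrl1 was higher in mice 686 (0.54) and 713 (2.37) and lower in mouse 760 (-0.50), a difference of 2.87. Fcrl6 was higher in mouse 760 (2.08) and lower in mice 686 (-1.79) and 713 (-1.74), a difference of 3.87. Fcgr2b was higher in mouse 713 (1.61) and lower in mice 686 (-1.47) and 760 (-3.26), a difference of 4.86. Fcgr3 was higher in mice 686 (1.74) and 713 (4.71) and lower in mouse 760 (-0.48), a difference of 5.19. Against dHet proB, Fcrl6 was higher in mouse 760 (3.28) and lower in mice 686 (-0.58) and 713 (-0.53), again 3.87 apart. Fcgr2b was higher in mouse 713 (1.55) and lower in mice 686 (-1.53) and 760 (-3.32), again 4.86 apart.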

How the results depend on the processing

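With no depth in the files, low values such as those of Fcrlb and Fcrl5 carry an unknown counting error. The number of members called in dHet proB against wt proB (1, Fcrl5) was 2 without a filter (with Fcrlb), 0 with a filter of FPKM 5, 3 with only the 2 groups compared, 4 with all 11 libraries in 5 groups and 0 to 3 when a library or mouse was left out: 0 without either wt proB library, where Fcrl5 was no longer tested, 3 without mouse 713 and 2 without mouse 760. The fit of 11 libraries in 5 groups counts the 2 libraries of a mouse as separate replicates, so its count is a description. Fcgr2b turned round between dHet proB and wt proB, from -0.19 to 0.53 over the settings that left out a library or mouse. It was -0.19 without dHet proB library 1, -0.17 without dHet proB library 2 and -0.09 without wt proB library 2.

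Over all genes, B-ALL against wt proB gave 905 higher and 1112 lower: 529 and 1695 after rescaling to TPM, 740 lower with a filter of FPKM 5, and 2369 and 2468 with 11 libraries in 5 groups. Leaving out a library or mouse gave 61 to 1113 higher and 132 to 1359 lower (leaving out wt proB library 1 gave 122 and 151, wt proB library 2 gave 61 and 132, mouse 686 gave 374 and 682). B-ALL against dHet proB gave 1613 higher and 1218 lower: 3130 and 2457 with 11 libraries in 5 groups, and 807 to 1663 and 582 to 1301 when a library or mouse was left out (807 and 585 without mouse 686, 811 and 582 without dHet proB library 1). dHet proB against wt proB gave 242 higher and 722 lower: 456 higher after quantile normalization, 1187 lower without a filter, 389 lower with a filter of FPKM 5, 751 and 1547 with 11 libraries in 5 groups, and 13 to 328 and 62 to 923 when a library or mouse was left out (leaving out wt proB library 1 gave 13 and 62, wt proB library 2 gave 20 and 94, dHet proB library 1 gave 129 higher). A lone wt proB library is assumed to vary like the other groups. The fits of 11 libraries in 5 groups count the 2 libraries of a mouse as separate replicates. Their spread leaves out that between the mice, so their larger counts are descriptions. Beyond this and the number of genes and samples, the cause was not tested.

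Between the groups compared, libraries with the same replicate number did not deviate together (correlation of deviations 0.004 between dHet proB and wt proB, -0.134 to 0.114 between these and the leukemia mice), while between the leukemia mice it was 0.135 to 0.640; the labels name no animal shared by equal numbers. With the replicate number as a block and 11 libraries, 2710 and 2829 genes were called in B-ALL against wt proB. There were 3177 and 2508 in B-ALL against dHet proB and 914 and 1859 in dHet proB against wt proB. In the last, 5 members were called by limma, among them Fcgr2b as higher (0.53, adjusted p = 0.0226). Replicate number 3 occurs in dHet proB alone, so the block takes dHet proB library 3 out of this contrast. That library was the lowest of dHet proB for Fcgr2b, with 16.2 FPKM. This fit also counts the 2 libraries of a mouse as separate replicates, so its calls are descriptions. Of 1950 list counts under the alternatives, 268 moved by more than 1.5 times. Of 1715 values of list genes, 147 lost the call and 0 changed direction.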
